A study of Rattus norvegicus with 3 samples.

Results

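The 6 genes described here encode proteins by which blood vessels catch passing leukocytes, or the ligand those proteins bind: Selp, Sele, Selplg, Vcam1, Icam1 and Madcam1. They were chosen by name, as 6 of the 34034 genes counted in each of 2 droplet single-cell RNA libraries of rat thymus. The thymi came from 8-week-old Lewis rats, an inbred strain, with no treatment or genotype contrast. One library held stromal cells, released with DNase I and Liberase TH and depleted, by autoMACS and then on a FACSAria III, of cells with CD45, the surface protein of blood-derived cells. The other held thymocytes, released with collagenase D and DNase I. The study asks which thymocytes and stromal cells occupy epithelium-free areas of the rat medulla. Each group was 1 library, so no test between conditions could be made, and the number of thymi per library is not given in the sources used here.

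Leukocytes leave blood in steps. The selectins slow the cell by binding sugars on a mucin-like ligand: P-selectin (Selp) and E-selectin (Sele) sit on endothelium, and PSGL-1 (Selplg) is the ligand P-selectin binds best. Firm arrest follows when leukocyte integrins grip immunoglobulin-family proteins on the vessel wall, with VLA-4 on VCAM-1 (Vcam1), LFA-1 on ICAM-1 (Icam1) and the integrin of Itga4 and Itgb7 on MAdCAM-1 (Madcam1). In the thymus this machinery serves both the entry of progenitors from blood and the traffic of mature cells, and PSGL-1 with P-selectin is known for its part in progenitor entry.

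The promoters of 2 members are shown because both genes were higher in 1 endothelial label and carry a match to the κB consensus, the letters that NF-κB proteins bind. The sequences come from RefSeq on build GRCr8 and run 5′ to 3′ on the gene's own strand, with capitals marking the matches searched for. The Vcam1 stretch lies at chr2:206742784-206742896 on the minus strand and ends 1 base before the annotated start. Its capitals are 1 κB match, 93 to 84 bases before the start, and a pair of overlapping matches to TATAAA, 1 on each strand.
Vcam1: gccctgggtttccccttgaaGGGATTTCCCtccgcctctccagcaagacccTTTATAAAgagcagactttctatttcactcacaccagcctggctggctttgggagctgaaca
The Madcam1 stretch lies at chr7:10690323-10690460 on the minus strand and also ends 1 base before the start. Its capitals are 2 κB matches, 118 to 109 and 106 to 97 bases before the start.
Madcam1: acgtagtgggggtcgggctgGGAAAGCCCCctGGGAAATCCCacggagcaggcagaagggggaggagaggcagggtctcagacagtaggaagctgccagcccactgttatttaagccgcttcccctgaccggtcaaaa
Both strands were searched over the 250 bases before each start. Of 33469 such windows, 6.33% held a κB match, 0.965% held 2 or more, and 12.9% held TATAAA. For Icam1 only the 93 bases outside the annotated gene were searched, and they held neither motif. Sele, Selp and Selplg were not searched. A match describes letters and is neither a bound site nor a cause.

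Cells carry the authors' labels, which were projected for 3463 stromal and 8362 thymocyte-library cells and are cluster names for the others, and the files do not spell the abbreviations out. By usage in the field, vEC, capEC and aEC are read here as venous, capillary and arterial endothelium, labels with TEC as thymic epithelium, vSMC/PC as mural cells, TMC and capFb as mesenchyme, and DP and DN as double-positive and double-negative thymocytes. The stromal library had 13226 labelled cells of 16160 barcodes, 131624350 unique molecular identifiers (UMIs, 1 per captured RNA molecule) and a median of 9088 UMIs per cell. The thymocyte library had 8546 of 8574 barcodes, 64440495 UMIs and a median of 3994. The libraries shared 28 labelled barcodes. Levels are CPM, the UMIs of a gene scaled to 1000000 UMIs summed over all cells of a label, for labels of at least 20 cells. Intervals are 95% and cover counting error within 1 library only. Fewer cells expressing a gene and less RNA per cell cannot be told apart in a summed level. The labels were drawn from the expression of these same cells, so each level below is a description. Despite the CD45 sort, 1095 stromal cells carried the labels Thymocyte, Myeloid or B cell. The 5-gene endothelial list (Pecam1, Cdh5, Kdr, Tie1, Egfl7) stood at 2665, 3577 and 2565 CPM in vEC, capEC and aEC, against 20.2 in the mesenchymal label TMC4. Of the venous genes, vEC had more Ackr1 (421 against 40.0 CPM in capEC), Vwf (403 against 61.1) and Nr2f2 (287 against 114), but not Ephb4 (81.8 against 92.8). Of the capillary genes only Car4 is given here, at 0 in vEC and 171 CPM in capEC. The arterial gene Gja4 reached 207 CPM in aEC, against 93.7 in capEC. The other arterial genes separated aEC from capEC little or not at all. Gja5 stood at 15.0 CPM in aEC and 18.7 in capEC, and Sox17 at 383 in both. Efnb2 stood at 226 in aEC and 220 in capEC, and Hey1 at 76.2 and 58.4.

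Both endothelial selectins were concentrated in vEC. Selp, the P-selectin gene, gave 3154 UMIs there, or 872 CPM (842 to 903), which was 90.9% of its UMIs in labelled stromal cells. The next label was capEC at 42.0 CPM (36.2 to 48.5), 20.7-fold lower (interval 17.9 to 24.0). The arterial label aEC had 2 Selp UMIs in 90 cells, and the ratio of vEC to aEC was 349 (96.6 to 2884). In the mesenchymal labels TMC1 to TMC4 and capFb, Selp stayed between 0.262 and 0.713 CPM. Neighbouring labels in this order differed beyond counting error in 2 of 17 pairs, vEC over capEC and capEC over aaTEC2 (12.8 CPM, 7 UMIs), and not below.

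Sele, the E-selectin gene, gave 1630 UMIs and 451 CPM (429 to 473) in vEC, 86.0% of its total. It stood at 32.1 CPM in capEC and 15.0 in aEC, a ratio of 14.0 (11.8 to 16.6) for vEC over capEC and of 30.1 (17.0 to 53.1) over aEC. The label that came next was nmSC at 74.1 CPM, but 18 of its 21 Sele UMIs lay in 1 of 39 cells. The lead over nmSC was 6.08-fold (3.96 to 9.36), and with labels of at least 50 cells only, capEC was next and the lead 14.0-fold.

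Madcam1 was rare and almost all in vEC. It gave 48 UMIs and 13.3 CPM (9.78 to 17.6) there out of 52 in all, in 17 of 344 cells, with at most 6 in 1 cell. Of those 17 cells, 14 also had Selp, a gene seen in 73.5% of vEC cells at full depth. No UMI was seen in capEC, and with 3 UMIs set there vEC was 19.7-fold higher (6.13 to 63.2). Single UMIs lay in TMC2, capFb, early Pr and mTEC-prol, and the ratio of vEC to mTEC-prol was 18.1 (3.10 to 731).

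**Figure D1:**
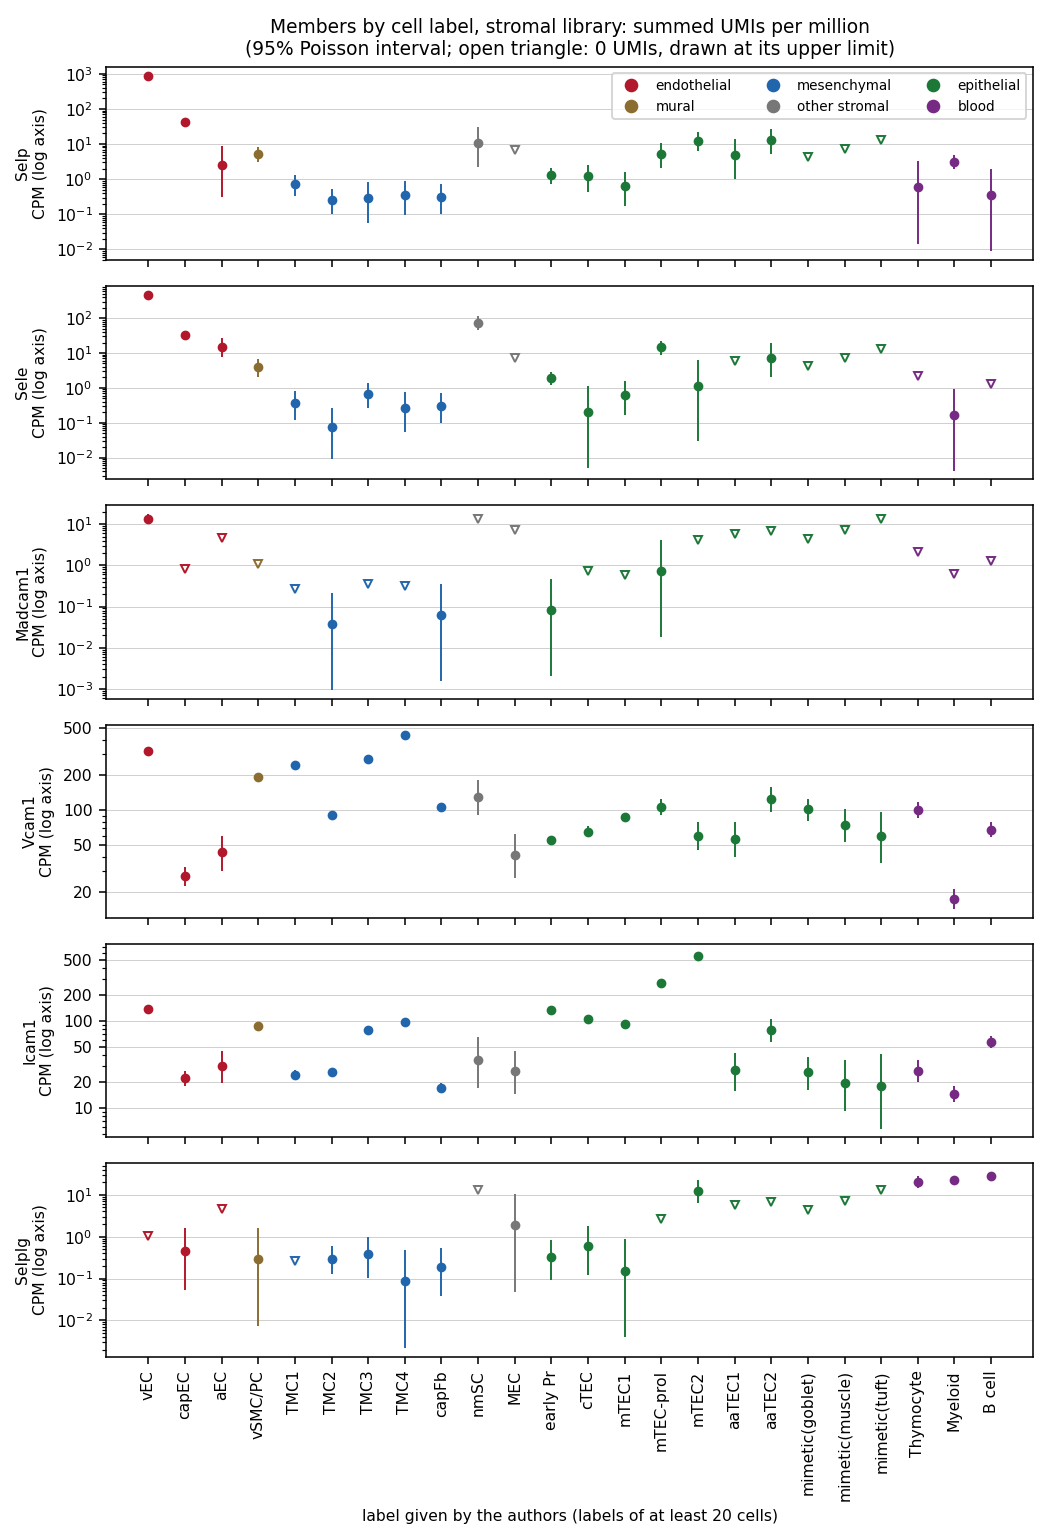
Level of each of the 6 genes in 24 labels of the stromal library, in CPM on a log axis, with 95% Poisson intervals and open triangles at the upper limit for labels with 0 UMIs. Selp, Sele and Madcam1 are highest in vEC (872, 451 and 13.3 CPM), Vcam1 in TMC4 (442), Icam1 in mTEC2 (554) and Selplg in the 3 blood labels (20.4 to 28.4).

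Selp, Sele and Madcam1 were thus called at least 3-fold above their next label, 3 of the 6 genes, where 9.44% of the 13149 genes with at least 20 UMIs in their highest label were. For Madcam1 this does not bound the small labels with 0 UMIs. In nmSC, 3 UMIs would be 10.6 CPM, beside 13.3 CPM of Madcam1 in vEC. Highest in vEC were 3 of 6, against 3.75% of genes, and at least 3-fold ahead there were 0.205% of genes. The median lead of the 6 over their next label was 4.05-fold, and 1.21-fold over all genes. Over 18 labels of at least 50 cells, the gene whose log2 level followed Selp most closely among 13999 was Sele (Pearson r 0.90), then Prickle4 (0.89) and Glycam1 (0.89), and for Sele it was Prickle4, Tmem252 and Stab1 (each 0.91). These correlations describe labels of 1 library that share its depth and carry no test.

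Within vEC the members were uneven from cell to cell. Selp had a median of 2 UMIs per cell and a highest value of 160, and the 35 cells with the most held 55.8% of its UMIs. Sele had a median of 2 and a highest value of 66, and its top 35 cells held 50.1%. Vcam1 and Icam1 were uneven too: both had a median of 0, with highest values of 106 and 51, and the top 35 cells held 72.4% and 64.2% of their UMIs. Of the 344 cells, 60 had a UMI of all 4 of Selp, Sele, Vcam1 and Icam1, 96 had 3 of them, and 37 had none. Sele was seen in 75.9% of cells with Selp and 36.3% of those without. With each cell thinned to 1000 UMIs these became 32.6% and 24.2%. The labels also differ in depth, with medians of 9586 UMIs in vEC and 5806 in capEC. At 1000 UMIs per cell, with 4 and 13 shallower cells left out, Selp was seen in 37.9% of vEC cells (32.8 to 43.3) and 2.25% of capEC cells (1.23 to 3.74), against 73.5% and 7.39% unthinned. In TMC2, a label that should lack both genes, 0.227% of 3080 cells had a Selp UMI and 0.0649% a Sele UMI, unthinned, at a median depth of 8270. Such shares differ between labels: 0.726% of TMC1 cells and 3.76% of Myeloid cells, at a median depth of 9510, had a Selp UMI, with at most 1 in any cell, and 0.199% of Myeloid cells did after thinning.

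**Figure D2:**
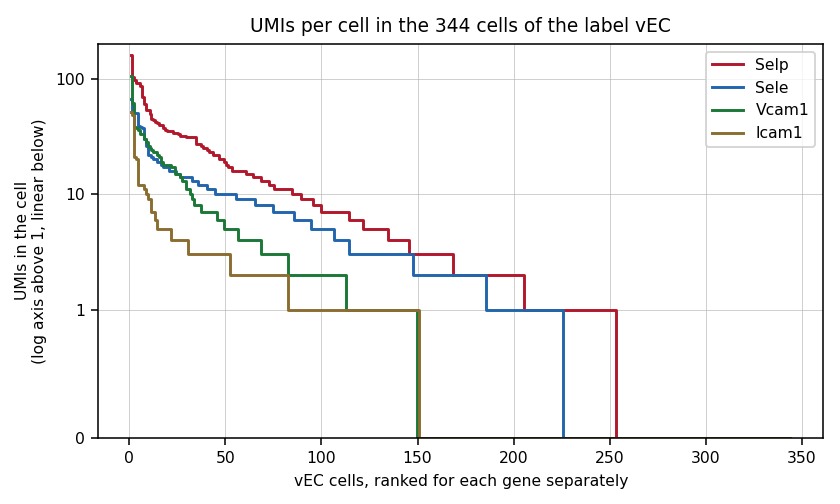
UMIs per cell of Selp, Sele, Vcam1 and Icam1 in the 344 vEC cells, ranked separately for each gene, on an axis that is logarithmic above 1 and linear below. Selp reaches 160 and Sele 66 in their highest cells, while the median cell has 2 of each. Vcam1 and Icam1 reach 106 and 51 with a median of 0.

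The authors' clusters divided vEC into 284 cells of Endo-1 and 60 of Endo-2. Selp stood at 1004 CPM in the first and 286 in the second, Sele at 510 and 186, Vcam1 at 351 and 171, and Icam1 at 151 and 79.7. Each of these 4 genes was lower in Endo-2, as was the endothelial gene Cdh5 (597 and 284), whereas the fibroblast gene Pdgfra stood at 6.77 CPM in Endo-1 and 176 in Endo-2. The part of fibroblast RNA in the lower member levels was not tested. Selp is also a platelet gene. Of the platelet genes in vEC, Ppbp and Gp1ba were at 0, Pf4 and Gp9 had 1 UMI each and Itga2b had 185. In the vEC and capEC cells with no UMI of the 5 platelet genes, Selp was 24.1-fold higher in vEC.

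Outside the endothelial labels, 12154 cells held 125 Selp and 110 Sele UMIs. Only 8 of those cells had 5 or more, and they held 61 of the Selp and 66 of the Sele UMIs. Of the 8 cells, 7 also had UMIs of the endothelial list (87.5%, against 15.0% of the other cells), and their median depth was 20184 UMIs against 9222. The exception was 1 mTEC-prol cell with 20 Sele and 7 Selp UMIs. All 18 Selp UMIs of the mural label vSMC/PC lay in 1 cell, as did all 11 of mTEC2, so the levels of those labels each rest on that cell. No doublet caller was run.

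Vcam1 and Icam1 were higher in vEC than in the other endothelial labels, as the selectins were, but spread far beyond vessels. Vcam1 stood at 318 CPM (300 to 337) in vEC on 1151 UMIs, 27.2 in capEC and 43.7 in aEC, so that vEC was 11.7-fold (9.70 to 14.1) above capEC and 7.28-fold (5.20 to 10.2) above aEC. Icam1 stood at 138 CPM (126 to 151) in vEC on 500 UMIs, 22.0 in capEC and 30.0 in aEC, ratios of 6.28 (5.05 to 7.79) and 4.61 (3.06 to 6.95). Between capEC and aEC, the Vcam1 ratio was 1.61 in favour of aEC (1.10 to 2.34) and Icam1 did not differ beyond counting error (1.36-fold, 0.871 to 2.13). The aEC level of Vcam1 rests on a few cells: 31 of its 35 UMIs lay in the 29 aEC cells of cluster Endo-2, at 84.0 CPM beside 171 CPM of Pdgfra, and 4 in the 61 cells of Endo-1, at 9.26 CPM (2.52 to 23.7) beside 2.31 CPM of Pdgfra. In all, 5 of the 6 genes were at least 3-fold higher in vEC than in capEC, where 2.03% of 11377 genes were, and the same 5 were so over aEC, where 2.46% of genes were. The sixth, Selplg, had 0 UMIs in vEC and aEC and 2 in capEC. For Madcam1 the 0 UMIs of aEC were set to 3, which gave a ratio of vEC to aEC of 3.54 (1.10 to 11.4). Within the cells of cluster Endo-1, an alternative chosen after seeing the data, the Vcam1 ratio of vEC to capEC was 20.6 and that of vEC to aEC 37.9, and aEC lay below capEC (ratio 0.544).

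**Figure D3:**
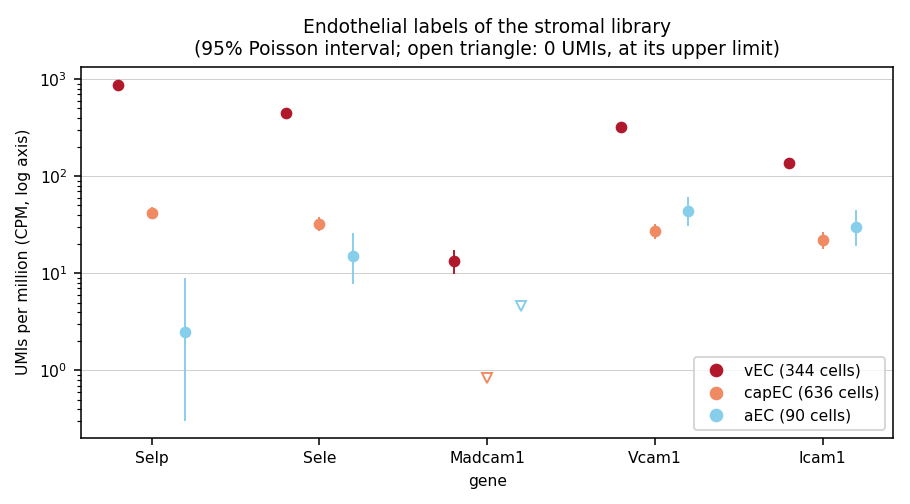
Level of the 5 vascular genes in the endothelial labels vEC, capEC and aEC of the stromal library, in CPM on a log axis with 95% Poisson intervals and open triangles at the upper limit for 0 UMIs. All 5 genes are highest in vEC, from 872 CPM for Selp to 13.3 for Madcam1.

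Other adhesion genes of endothelium differed between the labels in both directions. Pecam1, which encodes a junction protein of all endothelium, was 1.12-fold higher in vEC than in capEC (1.08 to 1.17), and Icam2, another LFA-1 ligand, was 1.16-fold higher in capEC (1.08 to 1.24). Alcam, an adhesion gene, was 3.02-fold higher in vEC (2.43 to 3.75), while Jam3, a junction gene, was 2.67-fold (2.34 to 3.04) and Mcam 1.56-fold (1.33 to 1.84) higher in capEC. Over all genes with at least 20 UMIs in their highest label, 9.44% led the next label by 3-fold and 3.75% were highest in vEC. Of the 9 junction and adhesion genes with at least 20 UMIs in their highest label, none led every other stromal label by 3-fold, and the median lead over the next label was 1.16. Among 12 cytokine receptor and NF-κB genes none did either, with a median of 1.19, and 3 were highest in vEC: Nfkbia, the NF-κB inhibitor gene, at 1849 CPM, Il1r1, the interleukin-1 receptor gene, at 438, and Tnfaip3, a feedback inhibitor gene, at 221. These 3 were 2.49-fold, 3.09-fold and 3.10-fold higher in vEC than in capEC. The lymphotoxin receptor gene Ltbr did not differ beyond counting error (1.14-fold, 0.985 to 1.33), nor did Rela, an NF-κB subunit gene (1.03-fold, 0.828 to 1.29). Of the other subunit genes, Relb was 1.79-fold (1.51 to 2.12) and Nfkb2 1.47-fold (1.16 to 1.86) higher in vEC. Nfkb1 did not differ beyond counting error (1.08-fold, 0.966 to 1.20). The receptor genes Tnfrsf1a (1.33-fold, 1.17 to 1.52) and Il4r (1.71-fold, 1.38 to 2.13) were higher in vEC, and Tnfrsf1b and Tnfrsf11a did not differ beyond counting error.

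Genes that make or carry selectin ligands were also uneven. Glycam1, which encodes a mucin of lymph node venules, reached 5190 CPM in vEC and 1075 in capEC (4.83-fold, 4.68 to 4.98), and had 3 UMIs in aEC. All of it lay in 8.72% of vEC cells and 2.04% of capEC cells, so that few cells set both levels. It was the 1 gene of 8 selectin partners with a 3-fold lead. Fut7, the fucosyltransferase that completes selectin-binding sugars, was 13.3-fold higher in vEC (18.0 CPM, in 14 cells) than in capEC (5.77 to 30.7), though its highest label was mTEC-prol at 55.6 CPM. Gcnt1, which builds the branched sugar core, was highest in vEC (74.6 CPM) but only 1.36-fold above MEC (0.925 to 1.99). Of 13 genes of enzymes that modify selectin ligands with enough UMIs, 1 led by 3-fold: Chst4, a sulfotransferase, at 89.2 CPM in MEC, 29.3-fold above vEC (15.2 to 56.6). Of 8 integrin receptor genes, Itgal led by 14.4-fold in Thymocyte (133 CPM) and Itgam led in Myeloid (85.0 CPM). Over the 5 lists, 4 of 50 such genes led by 3-fold, beside 9.44% of all genes with enough UMIs. Highest in vEC were 10 of the 50, beside 3.75% of all such genes.

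Across all stromal labels the VLA-4 ligand gene Vcam1 was highest in TMC4 rather than in an endothelial label. TMC4 had 5110 UMIs, 442 CPM (430 to 455), with Vcam1 in 89.1% of its 1249 cells, and stood 1.39-fold above vEC (1.30 to 1.48). Its own mesenchymal list summed to 4489 CPM, against 33902 in TMC1 and 2860 in vEC. Of that list Pdgfra stood at 290 CPM in TMC4 and 37.9 in vEC, and the mural list summed to 980 CPM in TMC4, 4142 in vSMC/PC and 38.7 in vEC. TMC3 followed at 272, TMC1 at 244 and vSMC/PC at 191 CPM, each differing from its neighbours beyond counting error. From nmSC at 130 down to capEC neighbouring labels did not, and 6 of 23 neighbouring pairs did in all. TMC2 stood at 91.3 and capFb at 107, so TMC4 was 4.84-fold (4.61 to 5.08) and 4.12-fold (3.90 to 4.35) above these 2 mesenchymal labels. Mesenchymal labels held 77.6% of all Vcam1 UMIs and 62.1% of the cells. The lowest label was Myeloid at 17.4 CPM, with Vcam1 in 6.73% of cells. Thymocyte-labelled cells of the stromal library, which should lack Vcam1, had 101 CPM in 10.9% of cells at a median depth of 2648 (8717 in TMC4), and beside it 9490 CPM of the 5-gene mesenchymal list (Pdgfra, Col1a1, Col1a2, Dcn, Lum). The genes most like Vcam1 over 18 labels were Sbspon, Hlcs and Parp3 (r 0.81, 0.81 and 0.80).

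Icam1 was highest in epithelium. In mTEC2, a label of 61 medullary epithelial cells, it reached 554 CPM (506 to 606) on 485 UMIs and was seen in 75.4% of cells at a median depth of 13378, against 5.84% of the Thymocyte-labelled cells. It followed at 270 CPM in mTEC-prol, so mTEC2 was 2.05-fold higher (1.79 to 2.35). It was 6.0-fold above mTEC1 (5.32 to 6.77), 5.34-fold above the cortical label cTEC (4.71 to 6.04) and 4.01-fold above vEC (3.54 to 4.54). In mTEC2 the epithelial list (Epcam, Krt8, Krt5, Foxn1, Psmb11, Aire) summed to 3991 CPM, against 27.6 in TMC4. The 10 thymocyte genes summed to 190 CPM in mTEC2, and among its cells with fewer than 3 UMIs of those genes Icam1 was at 387 CPM, 1.51-fold above mTEC-prol. Next came vEC (138) and early Pr (132), which did not differ beyond counting error, nor did the neighbours from cTEC (104) down, and 3 of 23 neighbouring pairs did in all. Epithelial labels held 45.0% of Icam1 UMIs with 17.4% of the cells, and mesenchymal labels 39.9%. Relb, an NF-κB subunit gene, was the gene most like Icam1 (r 0.87), then Exoc3l4 (0.86) and Lbhd2 (0.85).

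Vcam1 and Icam1 did not order the mesenchymal labels alike. Icam1 stood at 97.0 CPM in TMC4 and 79.2 in TMC3, at 25.6 in TMC2, 24.2 in TMC1 and 17.1 in capFb. TMC4 was 4.02-fold above TMC1 for Icam1 (3.56 to 4.54) but 1.81-fold for Vcam1 (1.74 to 1.89). The mural label vSMC/PC had an Icam1 level (87.5) within counting error of TMC4 (ratio 1.11, 0.976 to 1.26) and 2.31-fold less Vcam1 (2.13 to 2.51). The mTEC2 label, first for Icam1, had 60.6 CPM of Vcam1.

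**Figure D4:**
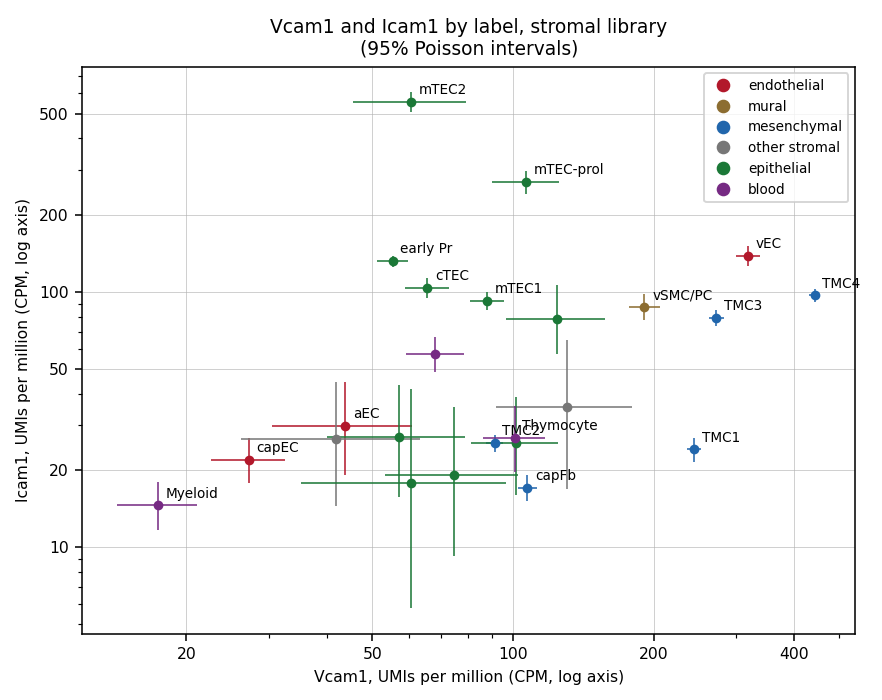
Vcam1 against Icam1 in 24 labels of the stromal library, both in CPM on log axes, with 95% Poisson intervals. TMC4 lies far right (442 CPM of Vcam1, 97.0 of Icam1), mTEC2 at the top (60.6 and 554), and vEC is high in both (318 and 138) while capEC is low in both (27.2 and 22.0).

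Selplg, the gene of the P-selectin ligand, was highest in labels of blood-derived cells in the stromal library. In the stromal library 86.7% of its 294 UMIs lay in B cell (28.4 CPM), Myeloid (23.0) and Thymocyte (20.4), which did not differ beyond counting error, and vEC had 0, which at a limit of 3 UMIs allows 0.829 CPM. Its level followed those of Laptm5, Vav1 and Cd37 most closely over 18 labels (r 0.96 each). In the thymocyte library Selplg gave 2066 UMIs and was seen in every label of at least 20 cells, all of them labels of blood-derived cells. It was highest in B+myeloid, a label that joins both cell types, at 125 CPM (111 to 140), 1.56-fold (1.22 to 2.00) above Mature CD4-1. The split of that label by the authors' clusters gave similar levels, 129 CPM in a cluster of 98 cells and 116 in one of 72.

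The 4 highest T-lineage labels were Mature CD4-1 at 79.7 CPM (63.3 to 99.1), Mature CD4-2 at 74.2, Mature CD8-1 at 70.7 and Treg at 63.1. Other mature labels were lower: Mature cycling T stood at 43.7 and Mature CD8-2 at 33.8 CPM, below intCD4 (52.1) and DP. DP stood at 44.0 (41.1 to 47.1), DP-sig at 17.1 (10.7 to 25.9), DP-P at 11.6 and DN, the least mature, at 7.75 (6.19 to 9.60). DP was thus 5.68-fold above DN (4.54 to 7.11) and 2.58-fold above DP-sig (1.69 to 3.94), and Mature CD4-1 was 10.3-fold above DN (7.58 to 14.0). Between neighbours in the order of 21 labels, 2 of 20 differences exceeded counting error: B+myeloid over Mature CD4-1, and DP-P over DN. Immature CD4-1 (18.2) and Immature CD8-1 (18.3) lay near DP-sig, and Immature CD4-2 (47.8) and Immature CD8-2 (51.7) near DP.

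The low DN level is a share of that label's RNA, and DN cells are deep, with a median of 23190.0 UMIs against 3206 in DP. In UMIs per cell DN had 0.215, DP 0.160 and Mature CD4-1 0.669. Unthinned, 18.2% of DN and 13.9% of DP cells had a Selplg UMI, the reverse of the CPM order. At 1000 UMIs per cell the shares were 1.03% in DN (0.280 to 2.61), 4.94% in DP (4.36 to 5.56) and 6.61% in Mature CD4-1 (2.90 to 12.6).

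**Figure D5:**
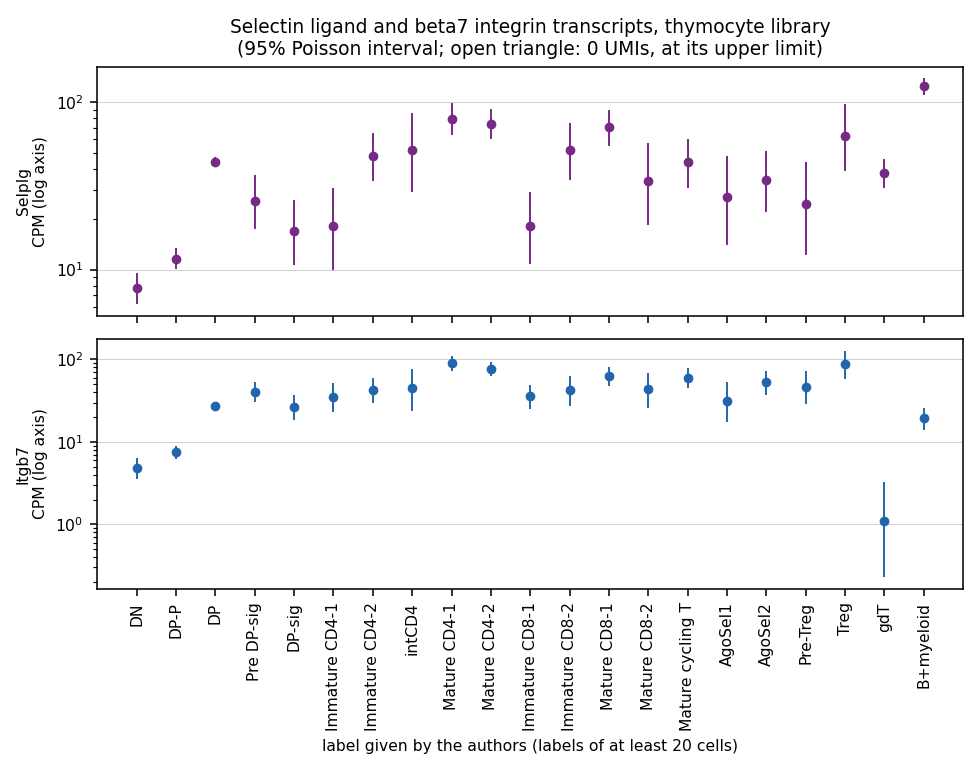
Selplg and Itgb7 in 21 labels of the thymocyte library, in CPM on log axes with 95% Poisson intervals. Selplg runs from 7.75 CPM in DN to 79.7 in Mature CD4-1 and 125 in B+myeloid, and Itgb7 is about as high in Mature CD4-1 (89.6) as in Treg (88.4), a ratio of 1.01 (0.664 to 1.55).

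The partner genes on thymocytes had orders of their own. Itgb7, a chain of the MAdCAM-1 receptor, was 18.7-fold higher in Mature CD4-1 than in DN (13.3 to 26.2) and 5.66-fold higher in DP than in DN (4.26 to 7.53). Itga4, the chain shared by the VCAM-1 and MAdCAM-1 receptors, stood at 512 CPM in Pre DP-sig and 494 in DP-sig, which did not differ beyond counting error, and at 126 in DN, so that Pre DP-sig was 4.07-fold above DN (3.70 to 4.47). Mature CD4-1 was 1.45-fold above DN for Itga4 (1.24 to 1.69). Itgal and Itgb2, the chains of the ICAM-1 receptor LFA-1, stood at 298 and 130 CPM in Immature CD4-1, their highest label, but neither lead over the next label exceeded counting error (1.01, 0.861 to 1.20, and 1.10, 0.829 to 1.45). In the gdT label Selplg stood at 37.8 CPM and Itga4 at 205, while Itgb7 had 3 UMIs (1.10 CPM). Fut7 was highest in gdT at 18.4 CPM, 2.44-fold above B+myeloid (1.42 to 4.18), and had 1 UMI in Mature CD4-1. Gcnt1 had 71 of its 128 UMIs in B+myeloid and 1 in DP. The genes most like Selplg over 17 labels were COX3, Gvin1 and RT1-M3-1 (r 0.86, 0.83 and 0.83).

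The vessel genes were nearly absent from thymocytes. Sele and Madcam1 had 0 of 64440495 UMIs, which at the same limit allows 0.0466 CPM. Selp had 106 UMIs spread thinly. It stood at 15.8 CPM in Treg (5 UMIs), 12.3 in Immature CD4-2 (10 UMIs) and 7.87 in Mature CD4-1 (8 UMIs), against 1.53 in DP (29 UMIs) and 0.526 in DP-P (9 UMIs). No neighbouring pair of labels differed beyond counting error, but labels far apart in the order did: Immature CD4-2 was 23.3-fold (9.47 to 57.3) and Mature CD4-1 15.0-fold (5.77 to 38.8) above DP-P. In Immature CD4-2, 6 of the 10 UMIs lay in 1 of 103 cells, which the interval does not cover. No Mature CD4-1 cell had more than 1. Vcam1 had 721 of its 723 UMIs in B+myeloid, at 302 CPM (280 to 324), with 1 UMI in DP and 1 in a label of 18 cells. Of these UMIs 653 came from 1 of the authors' clusters: its 72 cells stood at 845 CPM (782 to 913), with the macrophage genes Cd68 at 1325 and Csf1r at 419 CPM and the B-cell gene Cd79a at 0. The other 98 cells stood at 42.0 CPM, with Cd79a at 389, Cd68 at 87.8 and Csf1r at 48.2. B+myeloid also held RNA of stromal markers, 808 CPM of the mesenchymal list, 144 of the endothelial list and 113 of the epithelial list, with all genes of each detected. The endothelial gene Cdh5 and Pdgfra stood at 34.6 and 21.6 CPM in the 98 cells and at 5.18 and 0 in the 72. The part of stromal RNA in the levels of B+myeloid was not tested. Without the 63 of 170 B+myeloid cells that had a UMI of the platelet list, Vcam1 was at 59.4 CPM. That list had 727 UMIs of Pf4 there, 3 of Itga2b, 1 of Gp9 and 0 of Ppbp and Gp1ba, and its part in the level was not tested. Icam1 was at 62.8 CPM (53.1 to 73.6) in B+myeloid, at 63.0 and 62.1 in the 2 clusters, and 3.65-fold above AgoSel2 (2.03 to 6.56). The genes most like Icam1 over 17 labels were Ly49si2, Plxnb2 and Sgms1 (r 0.90, 0.89 and 0.88), and those most like Selp were Ntan1, Adat3 and Ccdc28a (0.80, 0.76 and 0.76).

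Of the 3 members with at least 20 UMIs in their highest thymocyte-library label, Vcam1 and Icam1 led by at least 3-fold, where 11.9% of 10010 genes did, and both did so in B+myeloid, where 10.5% of genes did. All 3, Selplg included, were highest in B+myeloid, as were 25% of genes. Of the 5 lists, 13 of 45 genes led by 3-fold, and 12 of those did so in B+myeloid, the label with the stromal markers given above. They were the selectin partners Cd34 and Cd24, the enzyme genes Fut4 and Tpst1, the integrin genes Itgam, Itgax and Itgad, the junction genes F11r, Esam and Alcam (180 CPM) and the receptor genes Tnfrsf11a and Il1r1. St3gal3, a sialyltransferase gene, led in gdT (234 CPM). The median lead over those 45 genes was 1.64-fold and over all genes 1.16-fold.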

How the data were processed

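Whole UMI counts per gene and barcode were deposited by the authors for both libraries, made with Cell Ranger 8.0.0 on build mRatBN7.2 and analysed in Seurat 5.3.0, per the submitters' processing notes. The authors also deposited per-cell counts, the percent of mitochondrial UMIs and their labels. Projected labels were used where given and clusters otherwise, without the prefixes TEC and EC. The spatial section was not used here, and strand and kit end are not given in the sources used here.

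UMIs were summed per label and given as CPM, with exact Poisson intervals for levels, Clopper-Pearson intervals for shares and log-normal intervals for ratios, all at 95%. PCR duplicates are removed by UMIs, and intervals cover counting error only. A label with 0 UMIs was set to 3 for a lower bound, and below 3 the plain ratio is printed with an exact conditional interval. Call counts use the floor of 3. A lead needed at least 20 UMIs in the highest label and at least 3-fold over the next.

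The 6 members and the lists were chosen with earlier results of these data known. Named are the members, 3 genes per list with the most UMIs among those with a 3-fold lead, the partners Itga4, Itgb7, Itgal, Itgb2, Fut7 and Gcnt1, and the 3 genes most like each member (not for Vcam1 in the thymocyte library) by Pearson correlation of log2(CPM + 1), where members and genes had at least 100 UMIs in the library. Pecam1, Icam2, Jam3, Mcam and the cytokine receptor and NF-κB genes compared between vEC and capEC were chosen after their values were seen. Some genes that the rule names are not reported here. The lists held 8 selectin partners, 14 enzymes that modify selectin ligands, 9 integrin receptors, 12 junction and adhesion genes (Cd99l2 was not matched) and 12 cytokine receptor and NF-κB genes.

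The lead rule was tested on simulated data for the stromal labels over 16162 genes. It called 0 of 50 genes raised 2-fold, 15 of 50 raised 4-fold, 43 of 50 raised 8-fold, 48 of 50 raised 16-fold and 0 of 15962 not raised. Of these, 21, 34, 46 and 49 of the raised genes and 6603 of the others reached 20 UMIs and could be called. A 2-fold rise lies below the 3-fold that the rule asks for, so the 0 there was largely set in advance. Of the 34034 names, 29427 matched the RefSeq table of GRCr8. Alternatives were the mean of cell CPM, totals without mitochondrial, ribosomal protein and haemoglobin genes, filters on cells, thinning to 1000 UMIs (83 stromal and 51 thymocyte-library cells were shallower), clusters in place of labels and labels of at least 50 cells. Doublets were not removed here. Tools were pandas 2.3.3, SciPy 1.17.1, NumPy 2.4.6 and matplotlib 3.10.9 under Python 3.11.15.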

Additional observations from a re-analysis of the deposited data

Results flagged for a closer look

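The stromal library holds 2934 barcodes to which the authors gave no label, with 8663291 UMIs and a median of 1220 per barcode, and these enter no level above. They are named here because members were counted in them above the limit that a count of 0 allows. They held 138 UMIs of Selp (15.9 CPM, in 28 barcodes), 79 of Sele (9.12 CPM), 46 of Selplg (5.31 CPM), 584 of Vcam1 (67.4 CPM) and 709 of Icam1 (81.8 CPM). Over labelled cells the levels were 26.3, 14.4, 2.23, 153 and 62.0 CPM, so Selplg and Icam1 were higher among barcodes without a label and Selp, Sele and Vcam1 lower. Madcam1 had 1 UMI there. What these barcodes are was not tested.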

How the results depend on the processing

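No paired analysis was possible because neither library has a replicate. Of 282 values recomputed under other settings, 220 stayed inside the reported value's own 95% interval (a count of genes, within 1.5 times), 61 moved and 1 changed direction, the Vcam1 ratio of aEC to capEC. The ratio of vEC to capEC ranged from 19.5 to 28.5 for Selp, 13.4 to 17.7 for Sele, 10.95 to 20.6 for Vcam1 and 5.74 to 7.59 for Icam1.

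With the mean of each cell's CPM, the vEC to capEC ratio was 28.5 for Selp and 16.6 for Vcam1, the vEC to aEC ratio 13.1 for Vcam1, levels were 43.5 (Selplg) and 429 (Vcam1), and 430 for Icam1 with a lead of 1.55, and the Selplg lead became 2.03. In the thymocyte library Selplg was 98.9 and Icam1 44.9 CPM. Totals without mitochondrial, ribosomal protein and haemoglobin genes raised levels, as fewer UMIs are counted: Selp 1062, Sele 549, Selplg 35.7, Vcam1 518 and Icam1 675 CPM, and 164 (Selplg), 396 (Vcam1) and 82.4 (Icam1) in the thymocyte library.

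At 1000 UMIs per cell, Selp was 956 CPM with a lead and vEC to capEC ratio of 27.1. Sele was 426 CPM (ratio 17.7), Selplg 67.0, Icam1 500.0 with a lead of 1.65, Madcam1 17.6, and the Vcam1 ratio 17.7. The vEC to aEC ratio of Icam1 was then 2.54, and aEC to capEC ratios were 2.52 (Vcam1) and 2.66 (Icam1). In the thymocyte library 1 member and 0 listed genes then led by 3-fold, since few UMIs are left. Selp in Treg was at 0, Selplg at 98.8, Vcam1 at 333 CPM with a lead of 7.78, and Icam1 at 24.7 CPM. No lead or vEC to capEC ratio is given where under 20 UMIs remain in the first label, as for Icam1 there (4 UMIs), Selplg, and Madcam1 in vEC (6, and 18 without platelet-list cells). The ratios with aEC needed only 3 UMIs in aEC, and those of aEC to capEC only 3 in each label. They can rest on few UMIs.

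Without cells holding platelet-list UMIs, Selp was 831 CPM with a lead and ratio of 24.1, the Vcam1 lead 1.60 with TMC3 next, Madcam1 8.85 CPM, and Vcam1 in B+myeloid 59.4 CPM with a lead of 368. Without stromal cells holding 3 or more UMIs of thymocyte genes, Icam1 was 387 CPM with a lead of 1.51. The Madcam1 lead, a lower bound with the next label set to 3 UMIs, was then 48.4, against 6.05 on the same floor with all cells.

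The authors' clusters merge vEC with capEC, so no ratio between them exists there. In Endo-1, Selp was 454 CPM (lead 5.38), Sele 241 (lead 3.87) and Madcam1 6.35. Icam1 was 199 CPM in TEC-d (lead 1.49), the Vcam1 lead 1.62, and in the thymocyte library the leads were 2.11 (Selplg) and 19.3 (Icam1). With labels of at least 50 cells the Sele lead was 14.0, and within Endo-1 the Vcam1 ratios were 20.6 (vEC to capEC), 37.9 (vEC to aEC) and 0.544 (aEC to capEC, on 4 aEC UMIs). This alternative was chosen after seeing the data, as was the split of B+myeloid by cluster, in which the 3 leads of the higher cluster over labels outside B+myeloid stayed within their intervals. Between its clusters the levels were 129 and 116 CPM for Selplg, 63.0 and 62.1 for Icam1 and 42.0 and 845 for Vcam1. Madcam1 rests on 52 UMIs in all, and Selp in the thymocyte library on 106.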
